A study of Mus musculus with 6 samples.

Results

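Messenger RNA of 10 growth receptors and growth factor ligands was examined in mouse kidney proximal tubule cells with and without Igf1r, which binds insulin-like growth factor 1. The 10 genes were taken by symbol from a table of 52405 genes. They are the growth hormone receptor Ghr, the prolactin receptor Prlr, the epidermal growth factor (EGF) receptor Egfr with its relatives Erbb2, Erbb3 and Erbb4, the hepatocyte growth factor receptor Met, and the ligands Egf, Hbegf and Fgf1. They were chosen as receptors and ligands that might stand in for the lost one. The rule used no measured value, though earlier results of these data were known. All 10 were found once in the table, and all 10 passed the filter on low values, a mean of at least 1 FPKM (fragment counts divided by transcript length and library size).

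The study held 3 libraries of control mice (Ctr) and 3 of mice in which Igf1r had been deleted in the proximal tubule (KO). Every animal was an adult C57BL/6 female whose ovaries had been removed on postnatal day 21 and whose kidneys were not injured. The cells were a bead-selected fraction of dissociated kidney cortex, positive for the surface protein prominin-1, and total RNA was sequenced. The sources used here do not give the Cre line behind the deletion, the genotype of the controls beyond the word control, exact ages or any pooling of animals. The libraries are labelled biological replicates, with no word on whether each came from its own mouse, so p-values measure the spread between these libraries.

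Growth hormone and prolactin receptors are cytokine receptors without a kinase of their own. They act through the bound kinase Jak2 and the transcription factor Stat5, and growth hormone is the main inducer of circulating Igf1 from the liver. The EGF receptor family are membrane tyrosine kinases that work in pairs. In the kidney Egf is made chiefly by the thick ascending limb and distal convoluted tubule and released into the urine, while Egfr, Ghr and Prlr are all known from the proximal tubule.

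The libraries held the markers of their labelled cell type. The phosphate transporter Slc34a1 lay at 1935 to 2669 FPKM and the summed FPKM of 8 markers of the early proximal tubule (segments S1 and S2) at 3168 to 4252 in Ctr and 3237 to 3852 in KO. They also held transcripts of other tubule segments in sums of a similar size, with 6 thick limb markers at 1488 to 2045 FPKM in Ctr and 1647 to 2958 in KO. For 6 markers of the distal convoluted and connecting tubule the sums were 2389 to 2696 in Ctr and 2113 to 3054 in KO. For 6 markers of collecting duct principal cells they were 436 to 769 in Ctr and 587 to 768 in KO. Ctr replicate 1 and KO replicate 1 stood apart from the other 4 libraries on the first principal component (-30.6 and -25.1 against 11.4 to 15.6). Those libraries also held 5 podocyte markers at 275 and 206 FPKM in sum, against 6.91 to 12.6 in the rest, and 6 endothelial markers at 136 and 111 against 11.7 to 18.9. Of 52 tested genes in 10 marker lists, limma passed 0 between KO and Ctr, and 4 had an unadjusted p under 0.05, where all genes gave 3.51%. On the log2 scale Slc12a3 of the distal convoluted tubule was higher in KO (0.27). Slc22a6 (-0.38), Slc6a18 (-0.36) and Acy3 (-0.46) of the proximal tubule were lower. Estimates were lower in KO for all 8 markers of segments S1 and S2 and for 6 of 7 tested markers of the late proximal tubule (segment S3). The part that the cell types of these lists had in the values below was not tested beyond the comparisons with and without the libraries numbered 1. In what follows, values of a group are listed in the order of replicates 1, 2 and 3. Steps of 1 fragment in the low values put depth at about 19000000 to 24000000 fragments per library, a reading of the smallest step that could be off by a factor of 2.

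The targeted gene was lower in every KO library. Igf1r (ENSMUSG00000005533) stood at 18.7, 15.3 and 22.7 FPKM in the Ctr libraries and at 4.78, 7.67 and 5.08 FPKM in the KO libraries. The groups did not overlap. Its log2 change, KO minus Ctr on the scale of log2(FPKM + 1), was -1.55 (SE 0.19, limma adjusted p = 0.267 over 12770 genes tested; exact two-sided permutation p = 0.1, the smallest that 3 against 3 libraries allow). In a bulk sample, fewer cells of a type and less RNA per cell cannot be told apart.

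None of the 10 receptors and ligands passed the threshold of an adjusted p of 0.05 in either direction. Over all genes tested, 3 of 12770 passed (0.0235%), so an empty count among 10 genes lies near the background. At an unadjusted p under 0.05 there was 1 of the 10, Prlr, where all genes gave 3.51%. The limma adjusted p was 1.0 for each of the 10. The estimate was lower in KO for 9 of the 10, with a median log2 change of -0.10 and a range of -0.32 to 0.06, and 56.4% of all genes tested had a lower estimate, with a median of -0.02. The groups failed to overlap for 1 of the 10, again Prlr, and for 8.59% of all genes tested, 4.7% with KO lower and 3.89% with KO higher. For comparison, the oestrogen receptor Esr1, one of the genes that passed, was higher in KO by 3.10 on the log2 scale (SE 0.25), with a limma adjusted p of 0.0284. That call was lost with no filter (limma adjusted p = 0.116) and without Ctr replicate 1, 2 or 3 or KO replicate 2 or 3 (0.0909 to 0.233), where the log2 change stayed between 2.94 and 3.16.

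**Figure D1:**
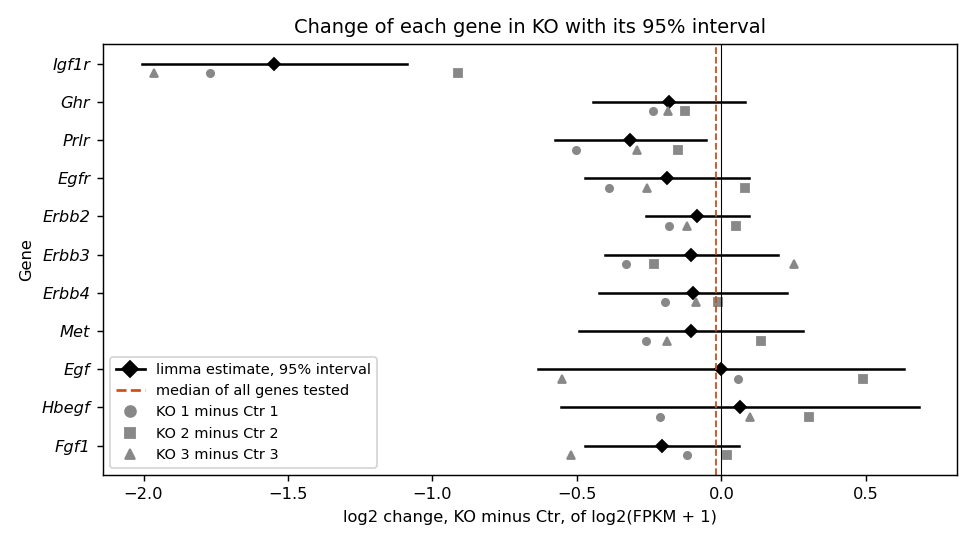
Log2 change in KO of Igf1r and the 10 growth receptors and ligands, on the scale of log2(FPKM + 1). Diamonds and bars give the limma estimate and its 95% interval. Grey symbols give the difference between the KO and Ctr libraries of the same number, and the dashed line the median of all genes tested (-0.02). Igf1r lies at -1.55, and the 10 genes lie between -0.32 and 0.06.

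Among all genes tested, a lower estimate in KO was more frequent the longer the annotated transcript. The longest annotated transcripts of the 10 genes run from 2890 bases (Hbegf) to 12037 bases (Erbb4). Among 1628 tested genes with a transcript over 6000 bases, 74.8% had a lower estimate and the median log2 change was -0.07, and 5 of the 10 belong to this class. The share was 65.6% of 2715 genes between 4000 and 6000 bases (median -0.04), the class of 3 of the 10. It was 56.4% of 4908 genes between 2000 and 4000 bases (median -0.02), where the other 2 lie, and 37.5% of 1321 genes of up to 1000 bases (median 0.05). With each library's trend with length removed, an alternative added after the data were seen, the log2 change was -0.24 for Prlr, -0.15 for Ghr, -0.11 for Egfr, -0.04 for Erbb2 and -0.02 for Erbb4. It was -0.18 for Fgf1, -0.05 for Met, -0.05 for Erbb3, 0.04 for Egf and 0.08 for Hbegf. The part of transcript length in the estimates of the 10 genes was not tested beyond this alternative.

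Levels of the 10 genes spanned more than 2 orders of magnitude in FPKM, a measure per length that allows genes to be set side by side. Egf stood first, with a mean of 775 over the 6 libraries, above 99.4% of genes tested. Ghr followed with 87.7 FPKM (above 92.2% of genes) and Prlr with 42.5 (above 84.6%). The ranges of these 3 over the libraries did not overlap each other or those of the genes below them. Met (23.1), Erbb2 (20.6), Erbb3 (17.9), Fgf1 (17.8), Hbegf (15.0) and Egfr (10.3) came next, and within this run each gene's range overlapped that of its neighbour. Erbb3 and Fgf1 were the closest, each above the other in 3 of 6 libraries. Erbb4 was last with 2.54 FPKM, below Egfr in all 6 libraries and above only 16.02% of genes tested.

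**Figure D2:**
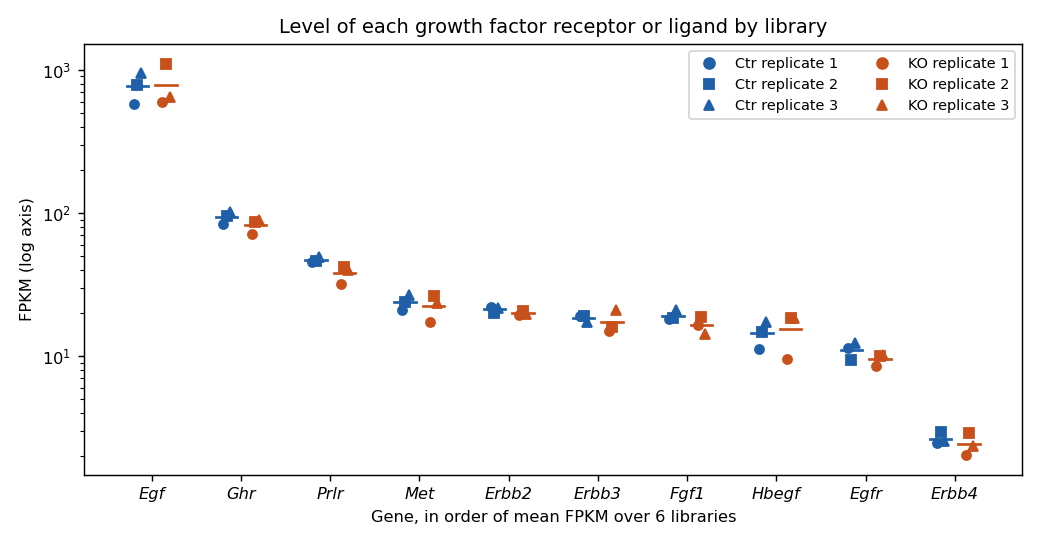
FPKM of the 10 genes in each library on a log axis, in order of their mean. Blue symbols are Ctr and orange symbols KO, with the shape giving the replicate number and the bar the group mean. Egf, Ghr and Prlr stand clear of each other, each of the 6 genes from Met to Egfr overlaps the next, and Erbb4 lies lowest.

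The prolactin receptor was the gene of the 10 with the lowest estimate in KO. Prlr (ENSMUSG00000005268, GRCm38 chromosome 15, 10177238 to 10349180, plus strand) binds prolactin and signals through Jak2 and Stat5. The Ctr libraries held it at 45.5, 46.4 and 49.4 FPKM and the KO libraries at 31.8, 41.7 and 40.1. All 3 KO values lay below all 3 Ctr values, and KO replicate 1 was the lowest. Group means were 47.1 ± 2.02 (SD, n = 3) for Ctr and 37.9 ± 5.33 (SD, n = 3) for KO, a 1.24-fold difference. On the log2 scale the change was -0.32 (SE 0.11, 95% interval -0.58 to -0.05, limma adjusted p = 1.0; exact permutation p = 0.1). It was -0.50, -0.15 and -0.29 within the libraries numbered 1, 2 and 3, and -0.20 without KO replicate 1. Summed markers of the late proximal tubule (segment S3, 8 genes) were also lower in KO, at 623, 703 and 799 FPKM in Ctr and 565, 596 and 569 in KO, without overlap. Gene by gene, the groups did not overlap for Acy3 and Slc6a18 and overlapped for the rest of this list. Aqp1, its most abundant gene by mean, stood at 232 in Ctr and 237 in KO. The part of segment S3 cells in the Prlr value was not tested.

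Prlr has several annotated first exons, and the gene-level FPKM adds transcripts from all of them. The 250 bases before 3 RefSeq starts (GRCm38.p6) are shown because Prlr was the gene of the 10 whose groups did not overlap. Whether each of these windows acts as a promoter was not tested. They lie at chr15:10176988-10177237, chr15:10223656-10223905 and chr15:10293401-10293650, plus strand, and are printed 5′ to 3′. Capitals mark the sequence TTCNNNGAA, to which Stat5 binds, where it was found on either strand.

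Prlr upstream start: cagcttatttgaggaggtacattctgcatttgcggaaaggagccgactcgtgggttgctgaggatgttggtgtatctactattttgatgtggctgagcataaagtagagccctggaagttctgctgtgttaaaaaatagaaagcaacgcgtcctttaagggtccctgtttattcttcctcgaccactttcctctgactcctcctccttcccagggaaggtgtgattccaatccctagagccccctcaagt
Prlr middle start: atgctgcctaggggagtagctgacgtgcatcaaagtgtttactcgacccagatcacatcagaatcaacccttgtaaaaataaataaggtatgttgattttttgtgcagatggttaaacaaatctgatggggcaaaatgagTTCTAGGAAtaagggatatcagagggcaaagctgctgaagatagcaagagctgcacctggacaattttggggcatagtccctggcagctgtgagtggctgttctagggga
Prlr downstream start: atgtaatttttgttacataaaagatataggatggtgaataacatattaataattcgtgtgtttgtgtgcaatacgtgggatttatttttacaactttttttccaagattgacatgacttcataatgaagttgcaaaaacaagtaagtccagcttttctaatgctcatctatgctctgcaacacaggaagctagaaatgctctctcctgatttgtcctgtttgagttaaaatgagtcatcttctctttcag

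TTCNNNGAA was found 1 time in these windows, 110 bases before the middle start. Of 32851 windows of the same length before RefSeq starts, with chromosome 18 left out, 7.02% held it. The full oestrogen response element (GGTCA, 3 bases, TGACC) was found in none of the windows of Prlr or of the other genes searched. Of the 32851 windows, 0.0639% held it. The letters TATAAA were absent from the 3 Prlr windows, and 12.4% of the 32851 windows held them. The 3 windows differ in base composition, with 48.0%, 44.8% and 32.8% G and C in the order printed. The table of FPKM does not say which start was used.

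The growth hormone receptor showed a smaller estimate in the same direction, with groups that overlapped. Ghr (ENSMUSG00000055737, GRCm38 chromosome 15, 3317760 to 3583492, minus strand) also gives rise to the soluble growth hormone binding protein. It stood at 83.9, 94.6 and 101 FPKM in Ctr and at 71.0, 86.5 and 88.9 in KO. In both groups the library numbered 1 was the lowest, and each KO library lay below the Ctr library of its number. The means were 93.2 ± 8.70 and 82.2 ± 9.69 (SD, n = 3 each). With 3 libraries a group the log2 change was -0.18 (SE 0.11, 95% interval -0.45 to 0.08, limma adjusted p = 1.0; exact permutation p = 0.3), and the differences within numbers 1, 2 and 3 were -0.24, -0.13 and -0.18. Without KO replicate 1 the log2 change of Ghr was -0.08. With the replicate number as a term of the fit its SE was 0.07 and the limma adjusted p 0.878.

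Ghr too is transcribed from more than one first exon, and the 250 bases before its 2 RefSeq starts (GRCm38.p6, minus strand) are shown for comparison with those of Prlr. They lie at chr15:3583353-3583602 and chr15:3581843-3582092. Capitals mark TATAAA, the letters of the TATA box, searched on either strand. The letters were found 1 time, on the opposite strand as TTTATA, 188 bases before the downstream start. Of the 32851 windows 12.4% held them, and whether this match acts as a TATA box was not tested.

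Ghr upstream start: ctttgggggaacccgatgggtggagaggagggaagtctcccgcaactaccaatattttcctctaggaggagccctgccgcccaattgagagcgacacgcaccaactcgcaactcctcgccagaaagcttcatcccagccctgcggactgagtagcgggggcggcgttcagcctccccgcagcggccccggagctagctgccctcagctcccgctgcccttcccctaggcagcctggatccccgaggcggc
Ghr downstream start: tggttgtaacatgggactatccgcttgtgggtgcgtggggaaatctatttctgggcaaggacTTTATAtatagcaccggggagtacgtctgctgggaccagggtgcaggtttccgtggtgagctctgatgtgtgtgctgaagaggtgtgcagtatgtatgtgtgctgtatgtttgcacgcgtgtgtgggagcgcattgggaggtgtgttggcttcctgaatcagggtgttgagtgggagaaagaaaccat

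No TTCNNNGAA was found in either window. The upstream window held 65.6% G and C with 17 CpG dinucleotides, and the downstream window 52.0% with 8.

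By limma, the 8 related lists, with 109 genes tested, held 0 genes past the threshold and 1 at an unadjusted p under 0.05 (Ccnd1). Genes acting below the hormone receptors had estimates on both sides of 0. Of 18 listed genes of growth hormone and prolactin signalling, 16 passed the filter and none passed the threshold, with 8 higher and 8 lower estimates and a median log2 change of -0.02, against -0.02 for all genes tested. The kinase Jak2 stood at 8.48 ± 0.84 FPKM in Ctr against 8.09 ± 0.98 in KO, with n = 3 and SD throughout. The log2 change was -0.07 (SE 0.10) for Stat5a and -0.09 (SE 0.13) for Stat5b. Socs2, a feedback inhibitor that growth hormone induces, was at 5.69, 10.1 and 4.52 FPKM in Ctr and 6.89, 9.47 and 9.04 in KO (log2 change 0.34, SE 0.26), with overlap. It was 0.12 without Ctr replicate 3 and 0.63 without Ctr replicate 2. Cish, a further inhibitor that Stat5 induces, was at 11.03, 19.7 and 14.9 in Ctr and 11.2, 24.5 and 27.0 in KO (0.38, SE 0.34). That was the highest estimate of the list, and Bcl6 had the lowest (-0.41, SE 0.39). The groups overlapped for both. Local Igf1, the ligand of the lost receptor, stood at 1.91 ± 0.70 against 2.48 ± 0.43 FPKM (0.28, SE 0.20). Igfals, which codes for the subunit that stabilizes circulating Igf1 complexes, was at 8.05 ± 0.49 and 8.86 ± 0.29 (0.13, SE 0.08).

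The EGF receptor family had the same order of mean levels in both groups. Erbb2 was above Egfr in every library, and Erbb4 was the lowest of the 4 in every library. Erbb2 was above Erbb3 in 5 of 6 libraries, the exception being KO replicate 3 (19.8 against 20.9 FPKM). Egfr (ENSMUSG00000020122, GRCm38 chromosome 11, 16752203 to 16918158), the receptor of Egf and Hbegf, stood at 11.4, 9.46 and 12.3 FPKM in Ctr and at 8.46, 10.1 and 10.1 in KO. Ctr replicate 2 lay below KO replicates 2 and 3, so the groups overlapped. Its log2 change was -0.19 (SE 0.12, 95% interval -0.47 to 0.09, limma adjusted p = 1.0; exact permutation p = 0.3). It was -0.11 without Ctr replicate 3 or without KO replicate 1, -0.29 without Ctr replicate 2 and -0.09 without both libraries numbered 1.

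Erbb2, the partner receptor that has no known ligand, was the steadiest of the 10 genes. It lay at 22.1, 19.9 and 21.6 FPKM in Ctr and 19.4, 20.7 and 19.8 in KO, the highest library 1.14 times the lowest. The log2 change was -0.08 (SE 0.08, 95% interval -0.26 to 0.09). A gene on the opposite strand, Mien1, overlaps Erbb2 (GRCm38 chromosome 11, 98412470 to 98437716) and had a mean of 74.8 FPKM, and whether reads were counted by strand is not given in the sources used here.

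Erbb3, a neuregulin receptor with little kinase activity of its own, was at 19.1, 19.0 and 17.4 FPKM in Ctr and 15.0, 16.1 and 20.9 in KO. The highest and the lowest library were both KO, and its log2 change was -0.10 (SE 0.13, 95% interval -0.40 to 0.20). It was -0.01 without KO replicate 1 and -0.24 without KO replicate 3. Erbb4, the other neuregulin receptor, was at 2.47, 2.93 and 2.56 in Ctr and 2.03, 2.90 and 2.35 in KO (log2 change -0.10, SE 0.14, 95% interval -0.42 to 0.23), with a change of -0.01 without KO replicate 1 and -0.20 without KO replicate 2. Erbb3 (ENSMUSG00000018166) lies on GRCm38 chromosome 10, 128567523 to 128589652, and Erbb4 (ENSMUSG00000062209) on chromosome 1, 68032186 to 69108059.

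Met, whose ligand drives growth and repair of tubule cells, followed the libraries more than the groups. Met (ENSMUSG00000009376, GRCm38 chromosome 6, 17463800 to 17573980) stood at 20.9, 23.9 and 26.8 FPKM in Ctr and at 17.2, 26.4 and 23.5 in KO. The libraries numbered 1 were the lowest of the 6. Its change was -0.10 (SE 0.16, 95% interval -0.49 to 0.28) and 0.06 without KO replicate 1. Its ligand Hgf was at 0 to 0.07 FPKM, below the filter, while genes that activate the ligand were abundant, with the protease Hpn at 209 ± 13.8 FPKM in Ctr against 215 ± 10.6 in KO (n = 3 each, SD). Of 14 listed genes of this group, 10 passed the filter, 8 with a higher and 2 with a lower estimate, none past the threshold (median 0.07). The activator gene Hgfac was at 10.2, 12.6 and 12.9 FPKM in Ctr and 12.9, 14.0 and 14.4 in KO, without overlap (log2 change 0.20, SE 0.11). The protease Plau had a log2 change of 0.33 (SE 0.18) and Ranbp9, a protein that binds Met, one of -0.15 (SE 0.09).

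Egf had the highest level of the 10 and the widest range between libraries on the log2(FPKM + 1) scale. Egf (ENSMUSG00000028017, GRCm38 chromosome 3, 129677565 to 129755316) lay at 573, 788 and 944 FPKM in Ctr and at 597, 1107 and 643 in KO. KO replicate 2 was the highest and Ctr replicate 1 the lowest, and the group means of 768 ± 186 and 782 ± 282 (SD, n = 3 each) were close. The log2 change was -0.001 (SE 0.27, 95% interval -0.63 to 0.63). The interval is the widest of the 10 and runs from 0.644-fold to 1.55-fold. Within the libraries numbered 1, 2 and 3 the difference was 0.06, 0.49 and -0.55, so these differences went both ways.

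A thick limb gene was among the 3 whose pattern over the 6 libraries came nearest to Egf, at almost equal distances. Likeness was the root mean square difference of log2(FPKM + 1) after centring each gene on its mean. The nearest gene was Slc12a1, the sodium-potassium-chloride cotransporter of the thick ascending limb (0.0868). Slc12a1 was at 175, 248 and 281 FPKM in Ctr and 165, 351 and 216 in KO. The pseudouridine synthase gene Pus7 (0.0874) and Fam129a (0.0879) came next. Umod, the most abundant thick limb marker, was at 1077, 1522 and 1412 in Ctr and 1234, 2300 and 1240 in KO. Egf amounted to 14.8, 16.7 and 20.4% of the summed FPKM of the 12 thick limb and distal markers in the Ctr libraries and to 12.7, 20.3 and 16.9% in the KO libraries. This ratio averaged 17.3 ± 2.83% and 16.6 ± 3.81% (SD, n = 3 each, exact permutation p = 0.9), with overlap. It depends on the distal marker Klk1, the most abundant of the 12, at 1794, 2063 and 2180 FPKM in Ctr and 2386, 1775 and 1520 in KO. The 6 thick limb markers alone summed to 1488, 2045 and 1941 in Ctr and 1647, 2958 and 1684 in KO. A ratio of Egf to the thick limb markers alone was not tested.

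Hbegf, the heparin-binding ligand of Egfr and Erbb4 and a gene that stress induces rapidly, was low in the libraries numbered 1. Hbegf (ENSMUSG00000024486) was at 11.3, 14.8 and 17.2 FPKM in Ctr and at 9.57, 18.5 and 18.5 in KO. Both libraries numbered 1 lay below the other 4, and the groups overlapped. Its log2 change was 0.06 (SE 0.26, 95% interval -0.56 to 0.68, limma adjusted p = 1.0). Without both libraries numbered 1 it was 0.20, with 2 libraries a group. The 3 genes nearest in pattern were Csrnp1 (0.04), the heat shock gene Dnajb4 (0.04) and Zfp36 (0.06). Zfp36, an immediate early gene on the list of tissue dissociation, was at 132, 167 and 181 FPKM in Ctr and 120, 206 and 204 in KO. All 12 dissociation genes passed the filter, 7 with a higher and 5 with a lower estimate and none past the threshold (median log2 change 0.02). By the smallest p in that list stood Fosb (-0.21, SE 0.36), Junb (0.10, SE 0.13) and Ier2 (0.09, SE 0.12). The part of tissue dissociation in the Hbegf values was not tested.

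**Figure D3:**
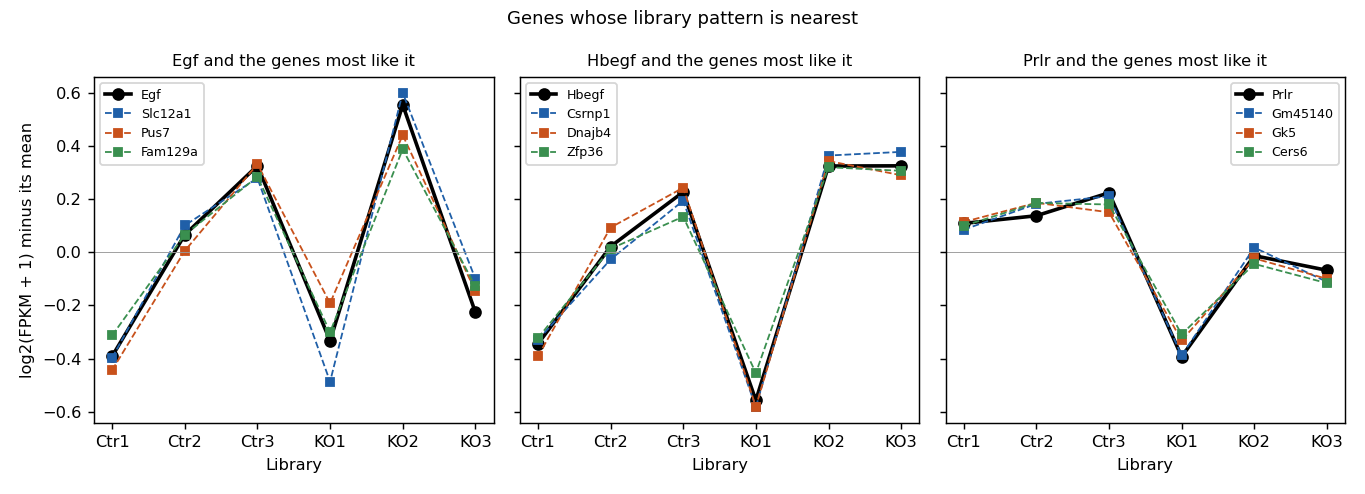
Log2(FPKM + 1) minus its mean over the 6 libraries for Egf, Hbegf and Prlr (black) and for the 3 genes nearest to each by root mean square difference (coloured). Egf runs with Slc12a1 and peaks in KO replicate 2, Hbegf runs with Csrnp1, Dnajb4 and Zfp36 and dips in both libraries numbered 1, and Prlr lies lower in the 3 KO libraries.

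The 3 genes nearest to Prlr were Gm45140 (0.03), Gk5 (0.05) and Cers6 (0.05). Each had all 3 KO values below all 3 Ctr values, which follows from picking them by likeness to Prlr. Cers6, a ceramide synthase, was at 5.97, 6.40 and 6.37 FPKM in Ctr and between 4.25 and 5.31 in KO. Prlr, Hbegf and Egf were compared in this way because their range over the libraries was the widest of the 10 on the log2(FPKM + 1) scale.

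Fgf1, a ligand of all FGF receptors, had the second lowest estimate after Prlr. Fgf1 (ENSMUSG00000036585) was at 18.1, 18.4 and 20.9 FPKM in Ctr and at 16.6, 18.7 and 14.3 in KO. KO replicate 3 was the lowest and KO replicate 2 lay above 2 Ctr libraries. The means were 19.1 ± 1.52 and 16.5 ± 2.21 (SD, n = 3 each), with a log2 change of -0.21 (SE 0.11, 95% interval -0.47 to 0.06, limma adjusted p = 1.0; exact permutation p = 0.3). Without KO replicate 3 it was -0.11. Of 18 listed FGF receptors, co-receptors and relatives, 11 passed the filter, 3 with a higher and 8 with a lower estimate, none past the threshold (median -0.04). Fgfr1 stood at 16.4 ± 1.80 and 15.9 ± 1.65 FPKM in Ctr and KO, and Kl, the co-receptor for Fgf23, at 163 ± 24.2 and 155 ± 10.9. The adaptor Frs3 had a log2 change of -0.23 (SE 0.12), Fgfr2 one of -0.21 (SE 0.14) and Fibp, an FGF1-binding protein, one of 0.15 (SE 0.10).

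**Figure D4:**
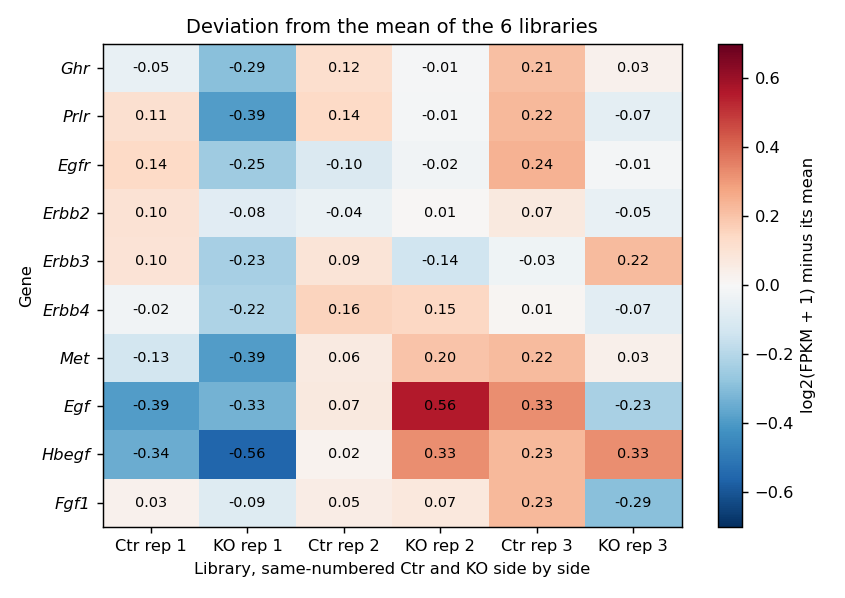
Deviation of each of the 10 genes from its mean over the 6 libraries, on the log2(FPKM + 1) scale, with Ctr and KO libraries of the same number side by side. Ghr, Met, Egf and Hbegf are lowest in the libraries numbered 1, and Prlr is above its mean in all 3 Ctr and below it in all 3 KO libraries.

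For 4 of the 10 genes, Ghr, Met, Egf and Hbegf, both libraries numbered 1 lay below the other 4. Of all genes tested 11.2% had this pattern, and 11.9% had both libraries numbered 1 above the other 4. The mean of the libraries numbered 1 was below that of the rest by 0.26, 0.39, 0.54 and 0.68 on the log2 scale for Ghr, Met, Egf and Hbegf. For each of these 4 genes that difference was larger than the one between KO and Ctr. For Erbb2 it was 0.02 in the other direction.

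Most other ligands of the EGF family were scarce, and the estimates of the enzymes that release them lay on both sides of 0. Of 16 listed genes 9 passed the filter, 5 with a higher and 4 with a lower estimate and none past the threshold (median 0.03). Areg, Ereg, Epgn, Nrg2, Nrg3, Nrg4 and Tgfa were below it, Ereg and Nrg3 being listed at 0 in every library. Btc was at 3.91 ± 1.51 FPKM in Ctr against 4.19 ± 0.17 in KO, and Nrg1 at 3.74 ± 0.86 and 3.51 ± 0.93 (SD, n = 3 each). The sheddase Adam10, which frees Egf and Btc, was at 16.5, 16.04 and 17.4 FPKM in Ctr and 14.9, 15.3 and 14.3 in KO, without overlap (log2 change -0.16, SE 0.07). Adam9 had a log2 change of -0.15 (SE 0.08), and Adam17, which frees Hbegf, one of 0.15 (SE 0.18), with a value in KO replicate 2 (12.2) far above that in KO replicate 3 (6.97).

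Adaptors and inhibitors of the ErbB receptors showed no gene past the threshold. All 23 passed the filter, 6 with a higher and 17 with a lower estimate (median -0.07). The feedback inhibitor Errfi1 was at 178, 200 and 305 FPKM in Ctr and 164, 247 and 352 in KO (log2 change 0.13, SE 0.30). The ubiquitin ligase Cbl, which marks activated Egfr for degradation, was at 3.12 ± 0.45 in Ctr and 2.67 ± 0.26 in KO (-0.16, SE 0.13). Rnf43, a ubiquitin ligase best known for Wnt receptors, had a log2 change of 0.22 (SE 0.16) and the deubiquitinase Usp8 one of -0.10 (SE 0.09).

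Of 12 listed targets of growth factor signalling through ERK, 10 passed the filter, 2 with a higher and 8 with a lower estimate (median -0.07), and none passed the threshold. Ccnd1, the cyclin D1 gene, was at 56.6, 60.9 and 65.0 FPKM in Ctr and 75.5, 85.5 and 71.8 in KO, without overlap (log2 change 0.34, SE 0.09, limma adjusted p = 1.0). The phosphatase Dusp6, a feedback target, was at 34.8 ± 7.93 and 34.3 ± 7.20 FPKM (SD, n = 3 each). Etv5 had a log2 change of -0.25 (SE 0.15) and Ier3 one of 0.21 (SE 0.20).

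Among 26 further growth factor receptors, 20 passed the filter, 3 with a higher and 17 with a lower estimate (median -0.12), again with none past the threshold. The insulin receptor Insr, the closest relative of Igf1r, was at 14.2, 13.9 and 13.8 FPKM in Ctr and 10.2, 12.04 and 13.1 in KO, without overlap (log2 change -0.24, SE 0.10, limma adjusted p = 1.0), and its change was -0.14 without KO replicate 1. Igf2r, which clears Igf2, had a log2 change of -0.17 (SE 0.12), and Bmpr2 one of -0.15 (SE 0.12). The receptors Kdr, Flt1, Pdgfrb and Axl on this list were high in the libraries numbered 1, the ones with podocyte and endothelial markers, as in the case of Kdr at 26.6 and 19.3 FPKM against 0.87 to 1.23 in the rest.

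**Figure D5:**
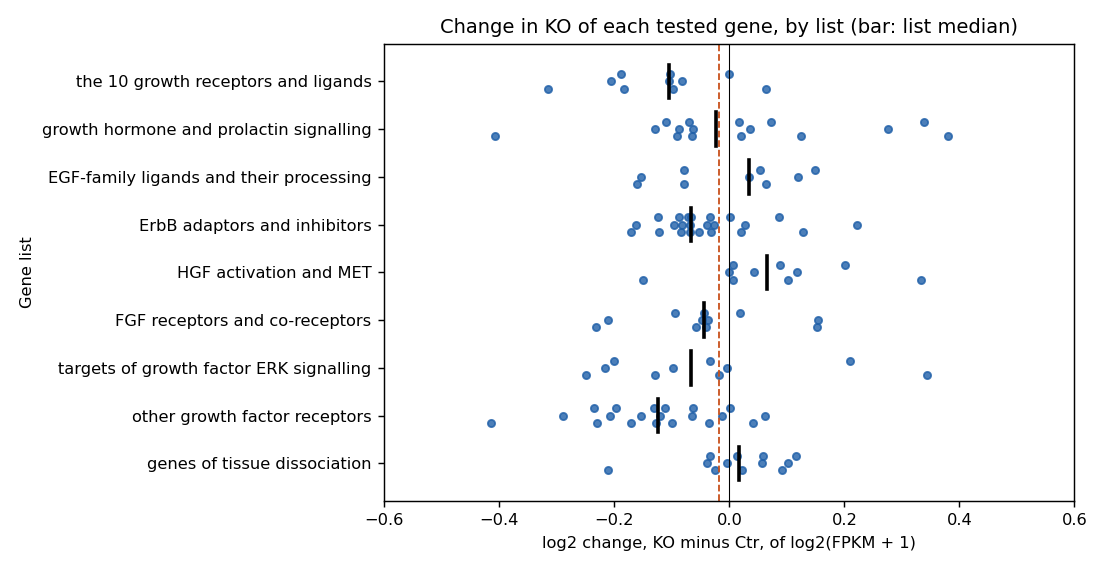
Log2 change in KO of every gene that passed the filter in the 10 growth receptors and ligands and in 8 related lists. Points are genes, the black bar is the list median and the dashed line the median of all genes tested (-0.02). The list medians lie between -0.12 and 0.07, and no gene of these lists passed the threshold.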

How the data were processed

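Values are FPKM as the authors deposited them, 1 column per library with 2 decimals. The submitters' processing notes name STAR 2.6.0c, RSEM and DESeq2 1.28.1 without roles. Libraries came from a strand-preserving kit, per the labels' protocols. The sources used here do not give the build, annotation or strand setting. FPKM is relative to each library's total, and reads shared by transcripts of different genes can have been split by estimate. Positions and lengths are from GENCODE M21 (GRCm38), which matched 52147 identifiers (99.5%). Windows before transcript starts are from RefSeq (GRCm38.p6). Chromosome 18, which holds Hbegf and Fgf1, was left out of the windows, and 7 of the 10 genes had windows.

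Values were tested as log2(FPKM + 1), so changes of low genes are understated. With a minimum mean of 1 FPKM, 12770 genes entered limma 3.58.1 in R 4.3.3, as a two-sided moderated test whose prior variance follows intensity. P-values were adjusted over all of them by Benjamini-Hochberg, with a threshold of 0.05. The fit was tested on simulated data with noise drawn independently for each gene and library and planted changes larger than those of the 10 genes. That test does not bear on changes as small as theirs or on the shift of the libraries numbered 1. The 10 genes and the related lists were chosen with earlier results of these data known, and lists are described by counts and medians with no test. Named genes are Igf1r, the 10, Esr1, the 3 genes of each list with the smallest p, the 3 nearest in pattern to the 3 most variable genes and the most abundant markers. Genes named beyond the rule were chosen after their values were seen. They are the further list members Jak2, Stat5a, Stat5b, Cish, Bcl6, Btc, Nrg1, Errfi1, Hgf, Hpn, Fgfr1, Kl, Dusp6, Kdr, Flt1, Pdgfrb and Axl. The markers Slc12a3, Slc22a6, Slc6a18 and Acy3 and the genes below the filter were also chosen in this way. Depth was read from steps of 1 fragment in genes with 1 annotated transcript, after subtracting 50 bases of length, and is approximate. No 2 libraries held identical values.

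The labels number the replicates of each group 1 to 3 without saying what a number means. Deviations from the group means correlated by 0.63, 0.29 and 0.37 between same-numbered libraries. Ctr replicate 3 and KO replicate 2 correlated by 0.30, and Ctr replicate 2 and KO replicate 3 by 0.15. The data thus set the libraries numbered 1 apart but do not tell whether numbers 2 and 3 are pairs. Differences within a number are given as description only.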

Additional observations from a re-analysis of the deposited data

How the results depend on the processing

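In all 17 alternatives 0 of the 10 genes passed, and the log2 changes of Prlr, Ghr, Egfr, Erbb2, Fgf1 and Igf1r kept their sign; so did that of Erbb4 in the 16 that tested it. Prlr ranged from -0.39 to -0.20. Egf turned to 0.015 with median-of-ratios size factors, 0.025 with quantile normalization and 0.036 with the length trend removed, and ranged from -0.28 to 0.16 when a library was left out. Hbegf ranged from -0.094 to 0.36 and Met from -0.23 to 0.064 in that way. Erbb3 was 0.0098 without both libraries numbered 1. Of the related genes, Adam17 ranged from -0.026 to 0.34, Junb from -0.017 to 0.21 and Fosb from -0.58 to 0.22 when a library was left out, and Fosb was 0.15 without both libraries numbered 1. Leaving out 1 library moved the log2 change by over 1.5 times for all 10 genes and for 19 of 24 related genes tried, the exceptions being Igfals, Adam9, Adam10, Frs3 and Ccnd1. The cause was not tested.

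The whole table gave 2 higher and 1 lower gene in KO. The higher count was 1 with no filter and with a mean FPKM of at least 5, 4 without both libraries numbered 1, and 0 to 3 when a library was left out. The lower count was 0 with a pseudocount of 0.1 or 0.5, a mean FPKM of at least 5, quantile normalization, rescaling without mitochondrially encoded genes or the length trend removed, 2 with no filter or without both libraries numbered 1, and 0 to 1 when a library was left out. With the replicate block 3 genes were higher and 1 lower, 0 of the 10 passed, and the block changed no call among the genes named. The SE of the 10 genes, 0.08 to 0.27, limits what 3 libraries a group can show. At a mean of 2.54 FPKM the pseudocount moves Erbb4 (-0.13 with 0.1).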
